A study of Mus musculus with 40 samples.

Results

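Human MAPT and mouse Mapt, the 2 genes that encode the microtubule-associated protein tau in 3xTg-AD mice, were followed through repeated closed-head injury (CHI). They are 2 of the 55539 features listed in the counts, and were found by name and organism: MAPT among the 3 human features (ENSG00000186868.11), and Mapt among the 55536 mouse features (ENSMUSG00000018411). The mice were 3xTg-AD females on C57BL/6J, aged 2 to 4 months, and bulk RNA of the somatomotor cortex of the left hemisphere was sequenced. A weight was dropped on the closed skull of anesthetized mice once daily, and the sham group, named Sham, received anesthesia alone with its exposures pooled. The groups were Sham (n = 4), 1xCHI at 0.5, 4 and 24 h after the injury (n = 3, 3 and 4), 2xCHI at 24 h (n = 3), 3xCHI at 0.5, 4 and 24 h (n = 3, 2 and 4), 4xCHI at 24 h (n = 3) and 5xCHI at 0.5, 4 and 24 h (n = 3, 3 and 4). One 3xCHI 4 h sample (sample 30) was left out, as the study did, which gave 39 of 40 samples with 15926014 to 27859547 counts each (median 19028778). All mice, Sham included, carried the transgenes, so no group lacked human MAPT.

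Tau binds microtubules along axons, and its aggregated, phosphorylated form makes up the neurofibrillary tangles of Alzheimer's disease. The 3xTg-AD line carries human APP and MAPT transgenes, both with disease mutations and both driven by the neuronal Thy1.2 promoter. The MAPT transgene encodes a single human isoform, whereas the mouse gene keeps its own promoter and its splicing. In bulk tissue, fewer transgene-expressing neurons and less transcript per neuron cannot be told apart.

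Mouse Mapt lies on the plus strand at chr11:104231390-104332090 of GRCm38 and is annotated with 12 transcripts, 8 of them protein coding, over 7531 exonic bases (GENCODE M21). Alternative exons change how many N-terminal inserts the protein has, and 2 of them are shown because the deposited counts sum over all of these isoforms. The insert exons have 87 bases each. The first, at chr11:104287123-104287209, was present in 5 coding transcripts and skipped by 3, and the second, at chr11:104289908-104289994, was present in 3 and skipped by 5.
first insert exon: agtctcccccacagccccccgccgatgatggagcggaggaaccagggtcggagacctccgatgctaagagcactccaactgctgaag
second insert exon: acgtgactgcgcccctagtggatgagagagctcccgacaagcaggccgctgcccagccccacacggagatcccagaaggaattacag

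Both tau genes were detected in every sample, but they differed widely in how much they varied. MAPT received 128 to 1007 counts per sample and Mapt received 8821 to 17392. In CPM, which scales counts to the size of each library (here by the TMM method of edgeR), MAPT ranged 6.60-fold, from 6.15 to 40.6 (mean 20.9 ± 8.90, SD, n = 39), and Mapt ranged 1.34-fold, from 522 to 702 (mean 579 ± 30.3, SD, n = 39). The coefficient of variation was 42.7 percent for MAPT, against a median counting error of 5.11 percent, and 5.23 percent for Mapt, against 0.956 percent. Among the 5037 features whose mean CPM lay within 2-fold of that of MAPT, 98.2 percent varied as much or less, and their median coefficient was 12.9 percent. Among the 456 features as near to Mapt, 4.61 percent varied as much or less, with a median of 11.4 percent. Variation within injury groups, which edgeR gives as a biological coefficient of variation, was 44.9 percent for MAPT and 6.41 percent for Mapt, beside a median of 13.9 percent over the 15224 features that passed the filter on low counts.

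No length is known here for the human feature, so MAPT and Mapt are set against each other only as a ratio that is compared between samples. How the counting divided reads that match both the human and the mouse feature is not given in the sources used here. Over the 39 samples there were 0.877 to 7.03 MAPT counts per 100 Mapt counts (median 3.50), an 8.02-fold range.

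In the sham group, MAPT was 14.9, 21.3, 23.5 and 32.7 CPM in samples 6, 20, 35 and 39. Mapt was 567, 621, 581 and 567 CPM in the same samples. Sample 6 was thus the lowest sham for MAPT, while sample 20 was the highest for Mapt.

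At 0.5 h after 1xCHI, MAPT was 6.15, 7.10 and 20.4 CPM in samples 13, 14 and 27, with Mapt at 702, 644 and 574 CPM. Samples 13 and 14 held the lowest ratios of all, with 0.877 and 1.10 MAPT counts per 100 Mapt counts, and also the highest Mapt levels, whereas sample 27 (3.56 per 100) lay within the sham range of 2.63 to 5.77. At 4 h, MAPT was 11.9, 16.4 and 24.6 CPM in samples 15, 16 and 36, and Mapt was 566, 583 and 571 CPM. At 24 h, MAPT was 10.3, 13.1, 35.3 and 40.6 CPM in samples 18, 17, 28 and 26, and Mapt was 565, 592, 582 and 578 CPM. The 24 h samples thus fell into a low pair and a high pair for MAPT, with the highest value of the series, while their Mapt levels differed little.

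At 24 h after 2xCHI, the state before the third injury, MAPT was 22.5, 20.8 and 25.5 CPM in samples 19, 21 and 29, the narrowest spread among the groups of 3 or 4 (SD 2.41), and Mapt was 543, 630 and 574 CPM. At 0.5 h after 3xCHI, MAPT was 7.68, 19.3 and 19.1 CPM in samples 4, 5 and 22, and Mapt was 576, 570 and 565 CPM. At 4 h, MAPT was 20.0 and 14.8 CPM in samples 1 and 3, and Mapt was 543 and 589 CPM. Sample 4 was low, and the other 2 samples at 0.5 h lay just under the 2xCHI range. At 24 h, MAPT was 23.4, 35.0, 22.4 and 22.8 CPM in samples 2, 23, 37 and 38, and Mapt was 578, 575, 567 and 556 CPM. Sample 23 stood above the other 3 for MAPT but lay among them for Mapt.

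At 24 h after 4xCHI, the state before the fifth injury, MAPT was 26.8, 13.9 and 18.2 CPM in samples 24, 25 and 40, and Mapt was 593, 605 and 584 CPM. At 0.5 h after 5xCHI, MAPT was 34.4, 19.4 and 15.1 CPM in samples 7, 8 and 31, and Mapt was 551, 553 and 585 CPM. At 4 h, MAPT was 29.8, 6.91 and 30.6 CPM in samples 9, 10 and 32, and Mapt was 597, 567 and 563 CPM. Sample 10 was the only one of the 3 in the range of samples 13 and 14. At 24 h, MAPT was 10.4, 14.4, 26.4 and 35.7 CPM in samples 11, 12, 33 and 34, and Mapt was 522, 567, 573 and 578 CPM, the first of these being the lowest Mapt value.

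**Figure D1:**
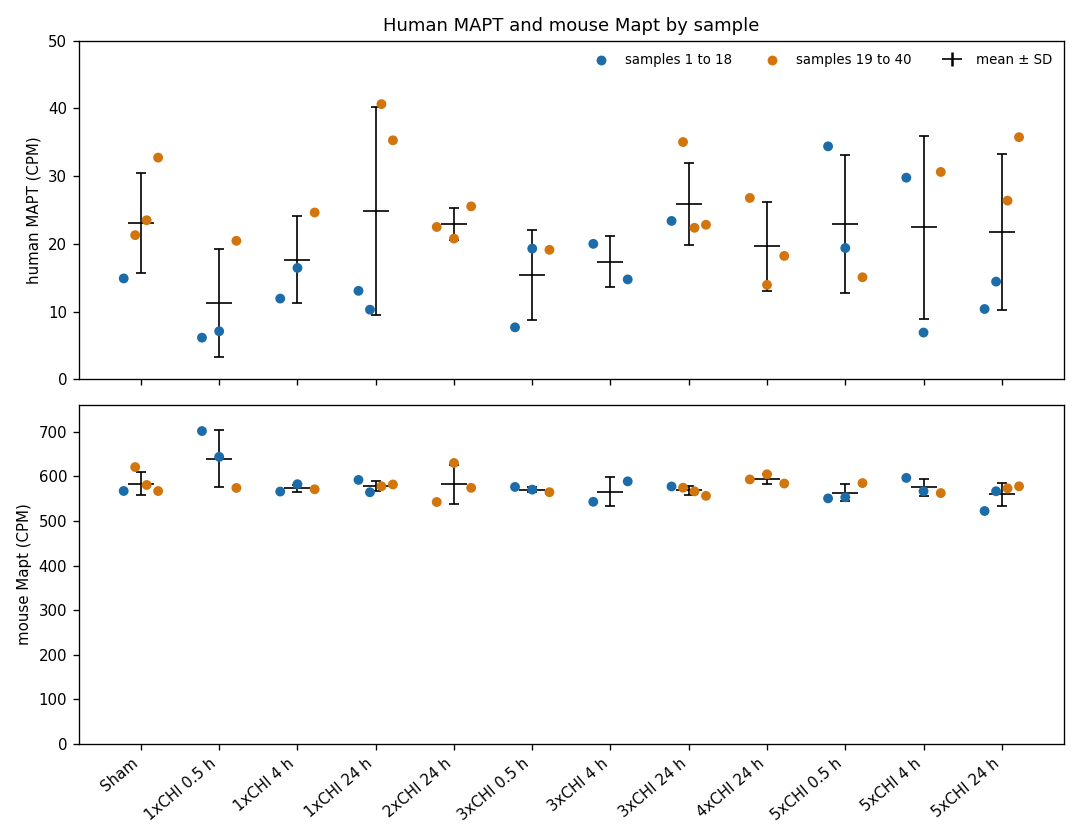
Human MAPT (upper panel) and mouse Mapt (lower panel) in CPM on axes from 0, one point per sample, with mean ± SD of each of the 12 groups in black and colors for sample numbers 1 to 18 and 19 to 40. MAPT spreads from 6.15 to 40.6 CPM, and the ranges of 6 of 66 pairs of groups lie apart (not counted for other features), while Mapt stays between 522 and 702 CPM.

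Ordered by mean MAPT, the 12 groups ran from 11.2 CPM at 0.5 h after 1xCHI to 25.9 CPM at 24 h after 3xCHI, a 2.31-fold difference. Ordered by mean Mapt, they ran from 560 CPM at 24 h after 5xCHI to 640 CPM at 0.5 h after 1xCHI, a 1.14-fold difference. Groups next to each other in these orders overlapped and had means closer than 1 SD in 11 of 11 cases for MAPT, for Mapt and for the ratio, which sorting by the mean favors. Of all 66 pairs of groups, the ranges lay apart in 6 for MAPT, in 4 for Mapt and in 3 for the ratio. Among all splits of 3 against 3 samples, a share of 0.10 leaves the ranges apart. The same counts were not made over all features, so they are not read as a result about either gene. For MAPT, the samples at 0.5 h after 1xCHI and at 0.5 and 4 h after 3xCHI (at most 20.4, 19.3 and 20.0 CPM) were all below those at 24 h after 2xCHI and 3xCHI (at least 20.8 and 22.4 CPM). Of these pairs, 2 are comparisons of 3xCHI with the group before the injury, where edgeR called 0 percent of all features. For Mapt, the samples at 24 h after 4xCHI (at least 584 CPM) were above those of 4 other groups. For the ratio, the same 3 groups as for MAPT (at most 3.56, 3.39 and 3.68 per 100) were below 24 h after 3xCHI (at least 3.95). A permutation test over the 12 groups gave p = 0.580 for MAPT, 0.0846 for Mapt and 0.466 for the log2 ratio, and over the 6 injury groups 0.791, 0.208 and 0.739 (adjusted permutation p over these 6 tests at least 0.508).

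Whether injury number changed either gene was asked by setting each injury group, over its time points, against sham. Neither passed the test in any of the 5 comparisons (edgeR quasi-likelihood test, Benjamini-Hochberg adjusted over 15224 features). From 1xCHI through 5xCHI, the log2 fold change of MAPT was -0.31 ± 0.38 (SE), -0.0099 ± 0.50, -0.17 ± 0.39, -0.23 ± 0.50 and -0.052 ± 0.39, with 95% intervals that reached from -1.25 to 1.00. With a covariate for the ranges of sample numbers 1 to 18 and 19 to 40, these were -0.12, -0.18, 0.10, -0.41 and 0.27 (edgeR adjusted p at least 0.866). The log2 fold change of Mapt was 0.028 ± 0.049, -0.0042 ± 0.063, -0.038 ± 0.050, 0.024 ± 0.063 and -0.047 ± 0.049 in the same order, with 95% intervals within -0.15 to 0.15. These intervals leave room for a halving or doubling of MAPT in some groups, but for little change of Mapt. Across all features, 0 percent were called in each of these 5 comparisons by edgeR, with 259 to 2625 features at an unadjusted p under 0.05, and DESeq2 called 0 to 10. The 2625 were those of 1xCHI. They went to 1410 without sample 35, to 4135 without sample 36 and to 1401 with the covariate for the ranges of sample numbers.

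Whether the hours after an injury changed either gene was asked by setting each time point against the group before that injury. Neither gene passed the test in any of these 9 comparisons, in which 0 percent of all features were called by edgeR, 286 to 2997 had an unadjusted p under 0.05 and DESeq2 called 0 to 28. Without sample 36, edgeR called 606 of 15238 features at 4 h after 1xCHI, neither gene among them. At 0.5 h after 1xCHI, MAPT had a log2 fold change of -1.05 ± 0.51 (SE, 95% interval -2.09 to -0.0099, unadjusted p = 0.0480, edgeR adjusted p = 0.252) and Mapt one of 0.13 ± 0.062 (95% interval 0.0055 to 0.26, unadjusted p = 0.0414, edgeR adjusted p = 0.243). They thus had opposite signs there, and 19.7 percent of all features reached an unadjusted p under 0.05 in the same comparison. In the other 8 comparisons the log2 fold change was -0.57 to 0.22 for MAPT (SE 0.45 to 0.60) and -0.085 to -0.012 for Mapt (SE 0.057 to 0.074). With the covariate for sample numbers, the log2 fold change of MAPT at 4 and 24 h after 1xCHI went from -0.38 and 0.11 to -0.045 and 0.20. At 0.5, 4 and 24 h after 3xCHI it went from -0.57, -0.40 and 0.17 to -0.024, 0.45 and 0.40, with a change of sign at 4 h. At the same times after 5xCHI it went from 0.22, 0.18 and 0.15 to 0.91, 0.71 and 0.45, and the edgeR adjusted p in these 8 comparisons was at least 0.677 with the covariate. The effect at 0.5 h after the fifth injury minus that after the first was 1.27 ± 0.73 for MAPT (edgeR adjusted p = 0.932) and -0.21 ± 0.091 for Mapt (edgeR adjusted p = 0.932), and no difference of effects between injuries was called at any time.

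**Figure D2:**
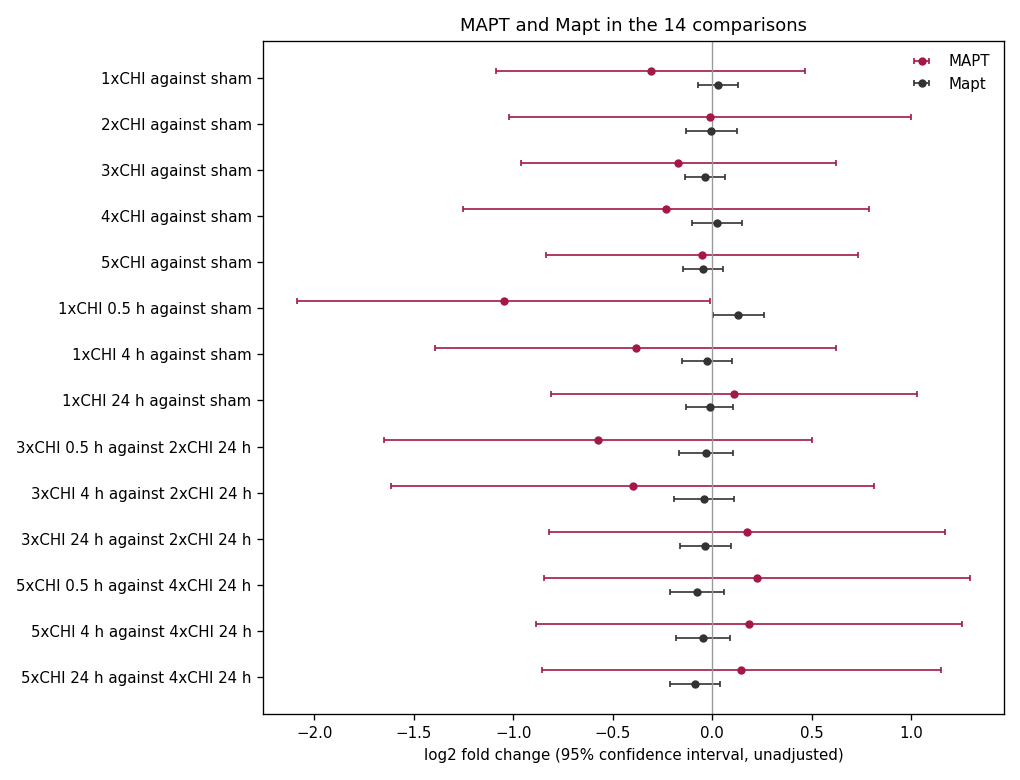
Log2 fold changes of MAPT and Mapt (points) with unadjusted 95% confidence intervals (bars) in the 14 comparisons. The MAPT intervals are many times wider than those of Mapt, and 0.5 h after 1xCHI is the comparison in which both exclude 0 before adjustment.

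The value at 0.5 h after 1xCHI rested on which of its 3 samples were used. Without sample 27, the log2 fold change was -1.80 ± 0.58 (SE, edgeR adjusted p = 0.0304) for MAPT and 0.20 ± 0.064 (edgeR adjusted p = 0.0268) for Mapt, and 3602 of 15244 features were called, or 23.6 percent. Without sample 13, it was -0.75 for MAPT and 0.061 for Mapt (edgeR adjusted p = 0.885 for both). Features at an unadjusted edgeR p under 0.05 numbered 2997 of 15224 with all 3 samples, 614 of 15243 without sample 13 and 6088 of 15244 without sample 27. Samples 13 and 14 have sample numbers between 1 and 18, as has 1 of the 4 sham samples, and with this division of the sample numbers as a covariate the log2 fold change of MAPT was -0.80 ± 0.41 (edgeR adjusted p = 0.408). The markers of striatum and hippocampus, of which 9 of 10 passed the filter, had a median log2 fold change of -0.92 at 0.5 h after 1xCHI, and their summed level was 148 to 186 CPM (median 165) against 143 to 667 CPM (median 180) in sham, so the medians lay close and the sham range reached higher. None of these 9 was at 0 in any sample. The part of either in the result was not tested.

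For the ratio of MAPT to Mapt, each comparison was tested by an exact permutation of samples between groups (two-sided). The sham group had 3.97 ± 1.34 MAPT counts per 100 Mapt counts (SD, n = 4), and the injury groups had 3.19 ± 2.06 after 1xCHI (n = 10), 3.96 ± 0.595 after 2xCHI (n = 3), 3.61 ± 1.29 after 3xCHI (n = 9), 3.31 ± 1.12 after 4xCHI (n = 3) and 3.93 ± 1.81 after 5xCHI (n = 10). The differences in mean log2 ratio from sham were -0.54, 0.046, -0.18, -0.25 and -0.13, with exact permutation p from 0.329 to 0.914 and an adjusted p of 0.914 for each. At 0.5 h after 1xCHI the ratio was 1.85 ± 1.49 per 100 (SD, n = 3), a log2 difference of -1.33 from sham with an exact permutation p of 0.114 (adjusted 0.900). The smallest p is 0.0286 with 3 samples against 4 and 0.10 with 2 or 3 samples against 3, so the comparisons of 0.5 and 4 h after 3xCHI and 5xCHI could not pass 0.05. Adjusted over the 9 comparisons over time, the smallest exact permutation p that these group sizes allow is 0.0514, so none could pass 0.05 and the test says nothing on whether the ratio changed over time. The adjusted exact permutation p that were found were 0.900 or more.

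**Figure D3:**
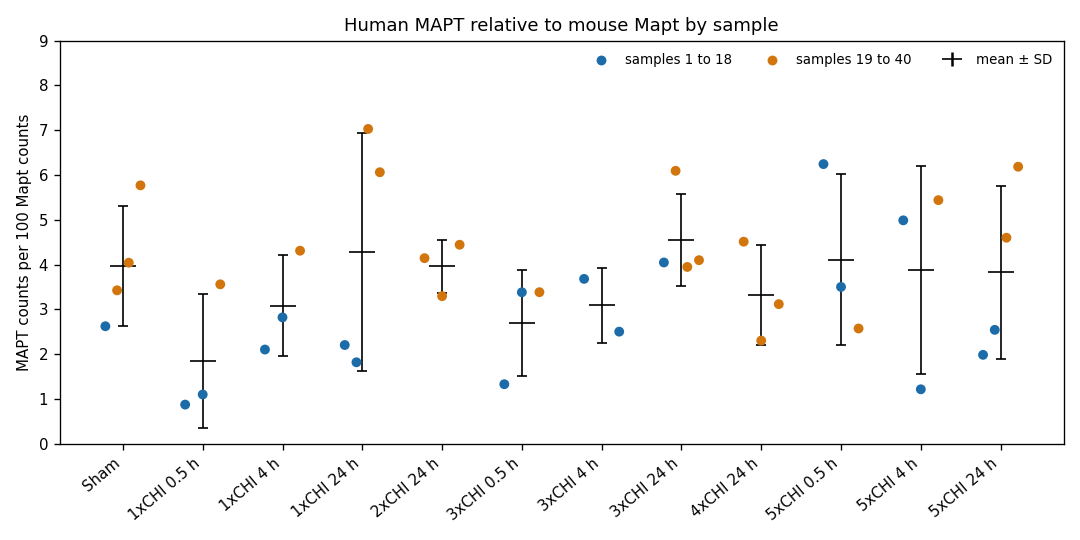
MAPT counts per 100 Mapt counts, one point per sample, with mean ± SD of each group in black and colors for sample numbers 1 to 18 and 19 to 40. The lowest ratios, 0.877 and 1.10, belong to samples 13 and 14 at 0.5 h after 1xCHI. The ranges of 3 of 66 pairs of groups lie apart, a count not compared with chance.

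MAPT also differed with the sample number. Samples 1 to 18 had 6.15 to 34.4 CPM (median 14.6, n = 18) and samples 19 to 40 had 13.9 to 40.6 CPM (median 23.5, n = 21). The medians of Mapt were 569 and 575 CPM. Summed cell markers differed between the same ranges, with medians of 15846 and 17195 CPM for neurons and 6853 and 5649 CPM for oligodendrocytes. For striatum and hippocampus they were 195 and 238 CPM, and for astrocytes 4475 and 4436 CPM. The part of these tissues in the MAPT difference was not tested. The division between samples 18 and 19 was chosen with earlier results of these data known, and it is not a batch that the study names, so no test was made of it. After 1xCHI, the 6 samples with low numbers had 6.15 to 16.4 CPM of MAPT and the 4 with high numbers had 20.4 to 40.6 CPM, with no overlap, whereas after 5xCHI the 2 sets overlapped (6.91 to 34.4 and 15.1 to 35.7 CPM). Within samples 19 to 40, the log2 ratio after 1xCHI differed from sham by 0.23 (exact permutation p = 0.514, adjusted 0.943), opposite in sign to the difference over all samples. Samples 1 to 18 held 1 sham sample, so the same comparison could not be made there. Over the 39 samples, MAPT had a Pearson r of 0.44 with the sample number (permutation p = 0.00541, adjusted 0.0115; Spearman rho 0.45, permutation p = 0.00432), but r was -0.41 within samples 1 to 18 and 0.087 within samples 19 to 40.

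Across samples, Pearson r of the log2 CPM of MAPT and Mapt was -0.31 (n = 39, permutation p = 0.0565, adjusted 0.105) and Spearman rho was -0.067 (permutation p = 0.685). With CPM scaled by library size alone, r was -0.38 (adjusted permutation p = 0.0297). Without the 2 samples farthest from the median of Mapt, r was 0.097. Within samples 1 to 18 it was -0.43 (adjusted permutation p = 0.153) and within samples 19 to 40 it was -0.27 (adjusted permutation p = 0.376). A total of 17 relations were computed, and adjusted values are over these.

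Human APP had 3 counts in all, at most 1 per sample. It did not pass the filter, so no relation of MAPT with it could be computed. Mouse App, the precursor of amyloid beta, had 1154 to 1954 CPM and followed MAPT, with Pearson r = 0.80 (n = 39, permutation p = 1e-05, the smallest the permutations can give, adjusted 5.67e-05) and Spearman rho = 0.81 (permutation p = 1e-05). The relation was chosen after its values were seen. How reads that match both human APP and mouse App were assigned is not given in the sources used here, and whether transgene reads were counted to App was not tested. It remained at 0.77 without the 2 farthest samples and was 0.72 within samples 1 to 18 (adjusted permutation p = 0.00493) and 0.52 within samples 19 to 40 (adjusted permutation p = 0.0804). Mapt showed no such relation with App (r = -0.16, permutation p = 0.338, adjusted 0.442). Thy1, the gene whose promoter drives the transgene, had r = 0.58 with MAPT (permutation p = 0.0001, adjusted 0.000283; Spearman rho 0.51, permutation p = 0.00102), which was 0.48 without the 2 farthest samples, 0.75 within samples 1 to 18 and 0.47 within samples 19 to 40 (adjusted permutation p = 0.113). Mapt had r = 0.036 with Thy1 (permutation p = 0.829, adjusted 0.940).

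**Figure D4:**
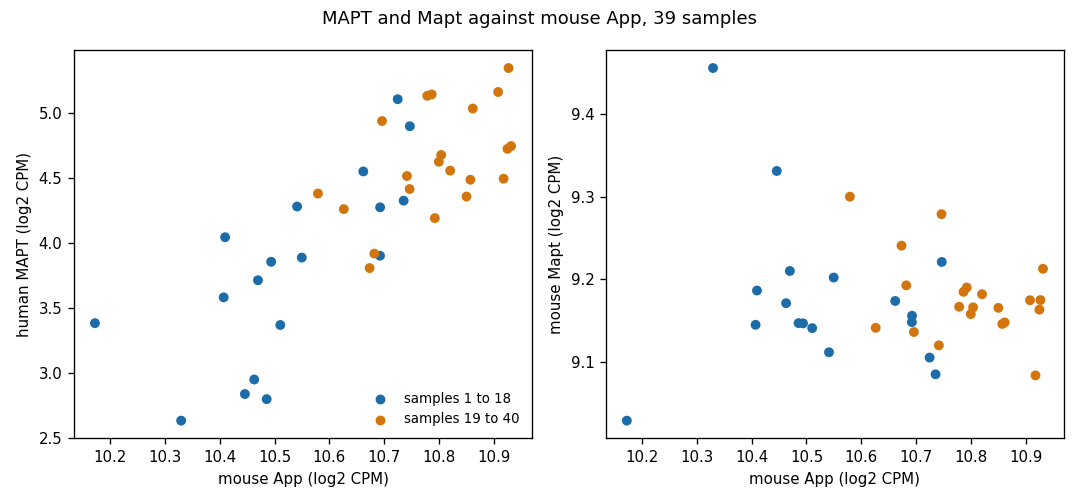
Log2 CPM of human MAPT (left) and mouse Mapt (right) against log2 CPM of mouse App, one point per sample (n = 39), colored by sample number. MAPT rises with App (r = 0.80) and Mapt does not (r = -0.16).

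Neither App nor Thy1 was called in any of the 14 comparisons. After 1xCHI their log2 fold changes were -0.17 ± 0.11 and 0.030 ± 0.11 (SE, edgeR adjusted p = 0.358 and 0.889).

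MAPT also moved with the leading axis of variation of the libraries. The first principal component, computed without MAPT and Mapt, held 32.4 percent of the variance, and r was 0.74 with MAPT (permutation p = 1e-05, adjusted 5.67e-05) and -0.30 with Mapt (permutation p = 0.0619, adjusted 0.105). The r of MAPT was 0.72 within samples 1 to 18 and 0.37 within samples 19 to 40. Summed markers of neurons (15 of 15 passed the filter, 11816 to 18500 CPM) had r = 0.68 with MAPT (permutation p = 1e-05, adjusted 5.67e-05), and those of projection neurons that express Thy1 (12 of 12, 5312 to 9222 CPM) had r = 0.64 (permutation p = 2e-05, adjusted 8.5e-05). The projection neuron list holds Thy1 itself and shares Slc17a7, Camk2a and Nrgn with the neuron list, so these relations are not separate results. Markers of striatum and hippocampus (143 to 714 CPM) had r = 0.62 (permutation p = 6e-05, adjusted 0.000204), and those of oligodendrocytes (10 of 10; 4121 to 9443 CPM) had r = -0.52 (permutation p = 0.00081, adjusted 0.00197). Within samples 19 to 40 these were 0.42, 0.51, 0.69 and 0.052, and the striatum and hippocampus list alone kept an adjusted permutation p under 0.05 (0.00697). Markers of astrocytes, microglia, endothelium, and meninges with choroid plexus had r from -0.19 to 0.18 (adjusted permutation p at least 0.374). For astrocytes the r of 0.15 went with a Spearman rho of 0.35 (permutation p = 0.0310, adjusted 0.0585). Leaving out the 2 farthest samples gave an r of 0.61. For microglia r went from -0.19 to 0.33 without the 2 farthest samples, and was -0.37 for deviations from the 12 group means. The adjusted permutation p of 0.0370 for these deviations treats them as 39 free values, although 12 means were taken out. It is thus too small and is not read as a call. No listed marker that passed the filter was at 0 in any sample, and the part of these cell types in the level of MAPT was not tested.

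The features most like each gene in log2 CPM over the 39 samples were different ones. For MAPT they were Camk1d (r = 0.84), a calcium and calmodulin dependent kinase, Epdr1 (0.83), Lrp11 (0.83), Stim1 (0.83), a calcium sensor of the endoplasmic reticulum, and Tmtc1 (0.82), and App ranked 28. For Mapt they were the neuronal beta-tubulins Tubb3 (0.76) and Tubb4a (0.75), Acot7 (0.76), an acyl-CoA thioesterase, Lrrc73 (0.75) and Ptpn5 (0.73), a phosphatase of synaptic proteins. An r above 0.7 in size was reached by 739 features for MAPT and 20 for Mapt. These points share libraries and their depth, and the values are descriptions.

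Among the mouse microtubule genes, Mapt was of intermediate level and varied little. Per kilobase of annotated exon, Mapt had 76.9 ± 4.02 CPM (SD, n = 39), between Map1a (97.3 ± 27.0) and Map1b (59.8 ± 7.58) and above Map2 (57.4 ± 10.1), the dendritic member of the tau family, and Map4 (29.3 ± 2.02), its widely expressed member. This length pools the exons of all annotated transcripts, and the order depends on it. In CPM alone, Mapt (579) lay below Map1a (1183), Map1b (948) and Map2 (945) and above Map4 (444). Tuba1a, the neuronal alpha-tubulin, had 404 ± 40.5 CPM per kilobase and Tubb3 had 135 ± 18.5. The coefficient of variation was 5.23 percent for Mapt, 6.89 percent for Map4, 17.6 percent for Map2 and 27.8 percent for Map1a.

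Of 44 microtubule-associated and neuronal cytoskeleton genes, 43 passed the filter and 0 rose or fell in any of the 14 comparisons by edgeR. After 1xCHI, 9 of the 43 had an unadjusted p under 0.05, beside 17.2 percent of all features, and their median log2 fold change was -0.0069, beside 0.013 over all features. After 5xCHI, 12 of the 43 did, beside 11.6 percent of all features, with a median of -0.15, and at 0.5 h after 1xCHI 13 did, beside 19.7 percent, with a median of 0.052. In 5xCHI against sham, 7 of 10 microglia markers (median 0.72) and 5 of 10 astrocyte markers (median 0.30) did, with 9 of 10 positive in each list. Summed microglia markers reached 867 CPM at 4 h and 1144 CPM at 24 h after 5xCHI, beside a median of 393 CPM over all samples. The part of these cells in the values of the 43 genes was not tested. After 1xCHI, over its time points, the highest log2 fold changes among the 43 were those of Tbca (0.55 ± 0.14, SE), Dpysl2 (0.35 ± 0.17) and Tbcb (0.33 ± 0.13), of which Tbca and Tbcb fold tubulin and Dpysl2 guides axon growth. The lowest were those of Map1a (-0.53 ± 0.22) and of the tau kinases Ttbk1 (-0.38 ± 0.14) and Ttbk2 (-0.38 ± 0.18), with edgeR adjusted p from 0.21 to 0.29 for these 6 genes. Of 14 genes for partners and handling of tau, all 14 passed the filter and 0 were called by edgeR in any comparison. After 1xCHI, 3 of the 14 had an unadjusted p under 0.05, beside 17.2 percent of all features, with a median of 0.076. The highest were Fkbp5 (0.34 ± 0.32), a co-chaperone, Stub1 (0.24 ± 0.12), a ubiquitin ligase for tau, and the RNA-binding protein gene Celf4 (0.22 ± 0.10), again after 1xCHI, and the lowest were Lrp1 (-0.23 ± 0.11), an uptake receptor for tau, Mbnl2 (-0.13 ± 0.10), a splicing regulator, and the tau-binding kinase gene Fyn (-0.11 ± 0.05). Of the 6 listed neighbors of Mapt on chromosome 11 (Crhr1, Kansl1, Sppl2c, Arhgap27, Plekhm1 and Cdc27), 5 passed the filter and 0 were called by edgeR. Of the coding genes beside Mapt, Sppl2c, the nearest upstream, had 0 counts in every sample. Crhr1, farther upstream, had 273 to 860 counts and Kansl1, downstream on the other strand, had 1228 to 2540 counts, and over the samples r was 0.73 between Mapt and Crhr1 and -0.24 between Mapt and Kansl1. The antisense gene Gm11659, which lies within Mapt, had 0 counts in every sample.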

How the data were processed

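The authors deposited estimated counts per gene, computed by a sequencing company with no normalization, and their columns have the format that salmon writes for genes. The salmon version is not given in the sources used here, and the labels name the build mm10. Of the values, 4.46 percent were not whole, and counts were rounded here before tests. A feature was kept when at most 4 samples had under 10 counts (15224 features). Groups were compared with the quasi-likelihood test of edgeR 4.0.16 (TMM scaling, R 4.3.3) over 6 injury groups or 12 injury and time groups, with DESeq2 1.42.0 as an alternative, and a call needed an adjusted p (Benjamini-Hochberg) under 0.05. Log2 CPM had a prior count of 1. Ratio tests enumerated every split, and correlations and tests over all groups used 100000 permutations (numpy 2.4.6). The tests were checked on simulated data. No 2 samples of a group were alike within counting noise (46 pairs, chi-square per gene at least 6.68). Per the study's methods, the sequenced samples came from different females. The genes described, the lists and the named genes (human transgenes, their mouse counterparts, Thy1, the 3 highest and 3 lowest list members after 1xCHI and the 5 features most like each gene) were chosen with earlier results of these data known. The alternatives were other scalings, filters, covariates and sample sets. Relations of MAPT and Mapt with App and the first component, relations of MAPT with marker lists, and the differences of effects between injuries were added after the values were seen. Certain measured items are not reported here.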

Additional observations from a re-analysis of the deposited data

Results flagged for a closer look

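Of 21 sets of 4 to 10 samples examined for a sample far from the others (about 1.05 such flags are given by chance), 2 held one, and both were sample 23 at 24 h after 3xCHI. Its MAPT level was 35.0 CPM, with the other 3 samples at 22.4 to 23.4 CPM, and its log2 ratio of MAPT to Mapt was -4.04.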

How the results depend on the processing

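No call was made for MAPT, Mapt or their ratio in the 14 comparisons. Under the alternatives, 2 of 494 fold changes had an adjusted p under 0.05, both at 0.5 h after 1xCHI without sample 27 (MAPT -1.80, Mapt 0.20), and the lowest of the other adjusted p was 0.159. None of 183 ratio differences did (lowest 0.60), of which those over time could not with these group sizes. Neither could 2xCHI or 4xCHI against sham within samples 19 to 40 or without a sham sample. Both are then 3 samples against 3, where the smallest adjusted exact permutation p is 0.10. None of 12 tests over all groups had an adjusted permutation p under 0.05 (lowest 0.629). Some signs changed, and the cause was not tested. With a covariate for the 2 ranges of sample numbers (1 to 18, 19 to 40), the log2 fold change of MAPT was 0.10 after 3xCHI, 0.27 after 5xCHI and 0.45 at 4 h after 3xCHI, and with the sample number as a covariate it was 0.085 after 2xCHI, 0.12 after 3xCHI, 0.14 after 5xCHI and 0.15 at 4 h after 3xCHI. With all 40 samples, Mapt was 0.0078 at 4 h after 3xCHI. As a percent of both genes, MAPT was 0.25 points higher than sham at 24 h after 1xCHI. Within samples 19 to 40, the ratio differed by 0.23, -0.13 and 0.053 after 1xCHI, 2xCHI and 5xCHI, by 0.0010 (1 sample against 3) and 0.60 (2 against 3) at 4 and 24 h after 1xCHI and by -0.31 at 0.5 h after 5xCHI (1 against 3), too few samples to read a sign from. No paired analysis was possible because each sample number belongs to 1 sample.

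For correlations, deviations from the 12 group means gave -0.077 for Mapt and the sample number, -0.37 for MAPT and microglia and -0.061 for MAPT and meninges. For microglia the adjusted permutation p was 0.0370, which is too small because 12 means were taken out. Within samples 1 to 18, r was -0.028 for Mapt and Thy1, -0.41 for MAPT and the sample number, -0.071 for MAPT and meninges and 0.52 for MAPT with striatum and hippocampus. Within samples 19 to 40, r of MAPT was 0.47 with Thy1, 0.087 with the sample number, 0.52 with App, 0.37 with the first component, 0.42 with neurons, 0.51 with projection neurons, 0.052 with oligodendrocytes, 0.33 with microglia and -0.10 with meninges, and Mapt had -0.34 with the sample number. With library size alone, r was -0.38 for MAPT and Mapt (adjusted permutation p = 0.0297), -0.014 for Mapt and Thy1 and -0.15 for Mapt and the sample number.

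Leaving out 1 sample at a time, MAPT ranged from -0.52 to -0.096 after 1xCHI, -0.18 to 0.20 after 2xCHI, -0.33 to 0.044 after 3xCHI, -0.52 to -0.020 after 4xCHI, -0.22 to 0.16 after 5xCHI, -1.80 to -0.75, -0.70 to -0.17 and -0.24 to 0.36 at 0.5, 4 and 24 h after 1xCHI, -0.77 to -0.25, -0.64 to -0.19 and -0.0043 to 0.26 after 3xCHI, and -0.19 to 0.51, -0.11 to 0.61 and -0.20 to 0.43 after 5xCHI. Mapt ranged from -0.0033 to 0.059, -0.066 to 0.044, -0.058 to -0.0079, 0.011 to 0.055 and -0.069 to -0.016 after 1xCHI to 5xCHI, and from 0.061 to 0.20, -0.060 to 0.0036 and -0.038 to 0.018 after 1xCHI, -0.078 to 0.028, -0.098 to 0.017 and -0.083 to 0.029 after 3xCHI, and -0.11 to -0.062, -0.073 to -0.028 and -0.10 to -0.053 after 5xCHI by time. The ratio ranged from -0.72 to -0.34, -0.13 to 0.25, -0.35 to 0.025, -0.51 to -0.021 and -0.30 to 0.075 after 1xCHI to 5xCHI, and from -1.95 to -0.94, -0.64 to -0.13 and -0.39 to 0.26 after 1xCHI, -0.89 to -0.22, -0.65 to -0.094 and 0.037 to 0.27 after 3xCHI, and -0.087 to 0.55, -0.37 to 0.71 and -0.16 to 0.39 after 5xCHI by time. In groups of 2 to 4 samples, the intervals of MAPT are too wide to show a change below about 2-fold.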
